A study of Mus musculus with 4 samples.

Results

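The stress transcription factor genes Atf4, Ddit3, Xbp1 and Nupr1 and the stress-induced genes Asns, Herpud1 and Trib3 were followed in mouse fibroblasts depleted of selenoprotein T. The genes were chosen by name, as factors and targets of the endoplasmic reticulum (ER) stress and amino acid responses, with the ER chaperones left out. Earlier results of these data were known when they were chosen. Of these 7 genes, 6 had at least 1 probe and were tested, among 4754 genes tested in all. No probe in the annotation used here carried the name Xbp1, so that gene was not analysed here. The cells were NIH 3T3, an established mouse embryonic fibroblast line, and each of 4 oligonucleotide arrays held RNA in both colours. In every case, Cy5-labelled RNA of cells carrying a knockdown construct in the pU6-m3 vector was set against Cy3-labelled RNA of cells carrying that vector without a target sequence. Construct siSelT-1 targets nucleotides 205 to 224 of the Selt mRNA and siSelT-5 nucleotides 971 to 989, with 2 arrays each from separate cultures. Cells of both channels were selected with 150 µg/ml hygromycin B and grown in DMEM with 10% serum and 100 nM sodium selenite. Whether the selected cells were 1 clone or a pool is not given in the sources used here.

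ATF4 is the factor through which cells answer phosphorylation of the translation initiation factor eIF2alpha. Kinases that sense unfolded protein in the ER, lack of amino acids, lack of heme or viral RNA all feed into it, and its own translation rises when general translation falls. ATF4 and its partners of the C/EBP family bind composite elements in the promoters of genes such as Asns, Ddit3 and Trib3. In the parallel ER branches, IRE1 splices the Xbp1 mRNA and ATF6 is cut at the Golgi, and both factors act on ER stress elements such as those of Herpud1. Selenoprotein T is a thioredoxin-like selenoprotein of the ER membrane, and genes that respond to ER stress are one readout of the state of that compartment.

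The deposited values are log ratios, read here as log2 ratios with knockdown in the numerator, since the titles name it first and the labels give it Cy5. The base of the logarithm is not given in the sources used here, and a ratio in the opposite order would turn every direction below. Knockdown RNA carried Cy5 on all 4 arrays, so that a dye effect specific to a gene cannot be told apart from a difference to vector. It cancels between the constructs. Selt itself, the target of both constructs, has no named probe, so the knockdown was not checked here, and a ratio holds no level by which fibroblast markers could be checked. Of 22534 probes, 7689 and 9232 had a value in the siSelT-1 replicates, against 20268 and 18361 in the siSelT-5 replicates. On the 7038 probes measured on all 4 arrays, the median ratio lay 0.14 above 0 (log2) for siSelT-1, 0.39 for siSelT-5 and 0.27 over both. Values called centred are taken from these medians. Over all values of an array, the median was 0.18 and 0.06 in the siSelT-1 replicates and -0.22 and -0.19 in those of siSelT-5. Centring on all values therefore moved siSelT-5 ratios up, and centring on shared probes moved them down. Replicates stood closer with siSelT-1 (root mean square SD 0.164 per gene) than with siSelT-5 (0.349). Variation among vector cultures was not measured apart from the ratios, and p-values cover only the spread between these arrays.

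The promoters of Asns, Nupr1 and Herpud1 are shown first, since these 3 genes hold elements of the response in the 250 bases before their start sites while Nupr1 fell and Asns and Herpud1 did not pass over both constructs. Sequences are those of RefSeq on GRCm38.p6, which held a promoter for all 7 genes, read on the strand of each gene. They cover chr6:7693210-7693459 (minus strand) for Asns, chr7:126625471-126625720 (minus strand) for Nupr1 and chr8:94386179-94386428 (plus strand) for Herpud1. Capitals mark matches to the ATF4-C/EBP composite TGATGNAA and to the ER stress element ERSE-II (ATTGG, any 1 base, then CCACG), both searched on both strands.
Asns: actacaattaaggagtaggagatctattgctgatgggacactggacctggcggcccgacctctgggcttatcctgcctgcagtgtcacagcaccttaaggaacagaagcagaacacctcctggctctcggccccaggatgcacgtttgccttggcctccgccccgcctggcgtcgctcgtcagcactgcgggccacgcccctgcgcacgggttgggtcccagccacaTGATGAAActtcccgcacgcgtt
Nupr1: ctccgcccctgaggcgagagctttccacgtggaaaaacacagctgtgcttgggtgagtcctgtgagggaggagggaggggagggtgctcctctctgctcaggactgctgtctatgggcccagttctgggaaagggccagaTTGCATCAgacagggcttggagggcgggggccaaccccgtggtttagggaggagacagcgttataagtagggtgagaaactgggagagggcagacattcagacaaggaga
Herpud1: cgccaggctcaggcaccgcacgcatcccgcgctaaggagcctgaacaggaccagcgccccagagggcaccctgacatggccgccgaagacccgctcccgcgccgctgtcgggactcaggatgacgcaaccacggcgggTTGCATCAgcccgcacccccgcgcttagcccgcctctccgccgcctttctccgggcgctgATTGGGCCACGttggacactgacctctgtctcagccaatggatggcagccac

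The composite began 23 bases before the start site in Asns, 110 bases before it in Nupr1 and 112 bases before it in Herpud1. It lay on the strand of the gene in Asns and on the opposite strand in the other two. The matches did not overlap each other. The composite was found in 3.45% of 32851 mouse promoter windows of the same length. Herpud1 also held ERSE-II, 52 bases before its start, which 0.0304% of the windows held. The full ER stress element ERSE (CCAAT and CCACG with 9 bases between them, in 0.113% of windows) and the element TGACGTGG bound by XBP1 and ATF6 (in 0.563%) were searched on both strands too, and they had no full match in the 7 promoters. Herpud1 matched 9 of the 10 fixed letters of ERSE at the edge of the window and differed at the last, the first base from the start site on; Ddit3 also matched 9 on the opposite strand. Atf4, Ddit3, Trib3 and Xbp1 had no full match to any of the 4 motifs in this window. Over the 81 tested genes whose window held the composite, the median log2 ratio of both constructs was 0.25, beside 0.25 over all 3930 tested genes with a window, and 50.6% of them passed beside 53.9%. For the 35 tested genes with TGACGTGG the median was 0.40 and 65.7% passed. For the 6 with ERSE it was 0.22 (33.3% passed) and for the 5 with ERSE-II 0.16 (40% passed). Whether these groups differ from all genes was not tested.

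Over both constructs, Atf4 and Ddit3 rose, Nupr1 fell, and Asns, Herpud1 and Trib3 did not pass the test. Nupr1 was the member farthest from vector, at a log2 ratio of -1.11 ± 0.09 (SD, n = 4). Atf4 stood at 0.69 ± 0.53 and Ddit3 at 0.55 ± 0.39, and their spread came mainly from the gap between the constructs. Of the 6 tested members 2 rose and 1 fell, which is 50% passing, against 53.7% of all 4754 genes (45.7% higher and 8.04% lower). The share of members that passed was thus near that of all genes. Their median was 0.14, beside 0.25 for all genes. Centred, again 2 rose and 1 fell, against 42.4% of all genes passing (20.5% higher and 21.9% lower), with a median of -0.13 beside -0.02.

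Nupr1 encodes a small chromatin-binding protein, also called p8, whose transcript is known to be induced by many kinds of stress, ATF4 signalling among them. Its probe read -1.15 and -1.02 (log2) with siSelT-1 and -1.06 and -1.22 with siSelT-5. All 4 arrays thus lay about 1 unit below vector, and the arrays of the constructs overlapped. The mean of the 4 arrays corresponds to 2.16 times less transcript than in vector cells (limma, adjusted p = 0.00161, 95% interval -1.31 to -0.91). Counted from the lowest of 4754 genes, Nupr1 had rank 10 and 26 in the siSelT-1 replicates and rank 76 and 85 in those of siSelT-5. It was the only member that passed for each construct alone, at -1.08 ± 0.09 (SD, n = 2, limma adjusted p = 0.0222) with siSelT-1 and -1.14 ± 0.11 (adjusted p = 0.00210) with siSelT-5. Centred, it stood at -1.22 and -1.53 and passed for both. Without siSelT-1 replicate 1 or without siSelT-1 replicate 2, the remaining siSelT-1 array stood at -1.02 or -1.15 and no longer passed (adjusted p 0.587 and 0.397), with the lone array assumed to vary like the siSelT-5 pair. Between the constructs, where a dye effect specific to a gene cancels, Nupr1 differed by 0.06 (siSelT-1 minus siSelT-5), with a 95% interval of -0.34 to 0.46. Its difference to vector cannot be told apart from such a dye effect.

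Atf4 encodes the factor that gives the response its name. It had 2 probes with a value on all arrays. Probe 1781047_1 read 0.32 and 0.45 (log2) with siSelT-1 and 1.14 and 1.24 with siSelT-5. Probe 1797042_1 read 0.17 and 0.03 with siSelT-1 and 0.97 and 1.23 with siSelT-5. In both probes, the siSelT-5 arrays stood well above the siSelT-1 arrays, with no overlap. As the mean of these probes, Atf4 stood at 1.14 ± 0.13 (SD, n = 2) with siSelT-5, a fold of 2.21 over vector (limma, adjusted p = 0.00203), and it ranked in percentiles 91.3 and 95.2 of all genes on those arrays. With siSelT-1 it stood at 0.24 ± 0.0036 and did not pass (adjusted p = 0.189, 95% interval -0.04 to 0.52). Centred, the values were 0.75 with siSelT-5, which passed (adjusted p = 0.0101), and 0.10 with siSelT-1. A further probe, 1795997_1, annotated to another transcript record of the gene, was measured in the siSelT-5 pair only and read -0.31 and -0.39, opposite in sign to the others. The median of the 7460 probes measured on both siSelT-5 arrays and on no siSelT-1 array was -0.63, and the probe lay in percentile 66.5 among them. With it included, the siSelT-5 mean of Atf4 was 0.65 (adjusted p = 0.0124).

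Ddit3 encodes CHOP, a C/EBP family factor that ATF4 induces and that is known for its part in cell death under lasting ER stress. Its probe read 0.17 and 0.26 (log2) with siSelT-1 and 0.91 and 0.86 with siSelT-5. The siSelT-5 arrays were both high and lay close together, while the siSelT-1 arrays lay in percentiles 48.7 and 70.8 of all genes. Ddit3 rose with siSelT-5, to 0.89 ± 0.04 (SD, n = 2) or 1.85-fold (limma, adjusted p = 0.00253). With siSelT-1 it stood at 0.22 ± 0.06 (adjusted p = 0.215). Centred, the ratios were 0.49 (adjusted p = 0.0201) and 0.08. In the 4 ratios Ddit3 was the member nearest to Atf4, at a Euclidean distance of 0.41 (log2), against 1.04 to 3.74 for the other members. Genes outside the members lay closer to Atf4, the nearest being Taf10 at 0.0894 and Rad21 at 0.0953. The median distance of all genes to Atf4 was 1.23.

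Asns encodes asparagine synthetase, a classical target of ATF4 when amino acids are short. Probe 1765149_1 read 0.26 and 0.04 (log2) with siSelT-1 and 0.72 and 0.33 with siSelT-5. Probe 1795538_1 read -0.49 and -0.14 with siSelT-1 and 0.57 and 0.46 with siSelT-5. The probes therefore agreed on siSelT-5 and had opposite signs on siSelT-1. As their mean, Asns stood at -0.08 ± 0.05 (SD, n = 2) with siSelT-1 and did not pass (adjusted p = 0.666). With siSelT-5 it rose to 0.52 ± 0.18, or 1.43-fold (limma, adjusted p = 0.0148), but this call was lost after centring, at 0.13 (adjusted p = 0.392), and without either siSelT-1 array (adjusted p = 0.0659). Over both constructs it stood at 0.22 and did not pass (adjusted p = 0.0739), and centring turned it to -0.05. Asns passed over both constructs by probe 1765149_1 alone, at 0.34 (adjusted p = 0.0372), and without siSelT-5 replicate 2, at 0.28 (adjusted p = 0.0140).

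Herpud1 encodes a membrane protein of ER-associated degradation whose promoter is a textbook target of the unfolded protein response. It read -0.11 and -0.08 (log2) with siSelT-1 and -0.06 and 0.20 with siSelT-5. All 4 arrays thus lay within 0.2 of vector. The mean was -0.01 ± 0.14 (SD, n = 4, limma adjusted p = 0.903), with a 95% interval of -0.22 to 0.20. Centred, all 4 arrays were below the median of the shared probes, at -0.28 in the mean, and the gene missed the threshold (adjusted p = 0.0508). Scaled by the median absolute deviation of each array as well, it passed at -0.29 (adjusted p = 0.0343).

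Trib3 encodes a pseudokinase that ATF4 and CHOP induce and that in turn restrains ATF4. It read -0.03 and 0.25 (log2) with siSelT-1 and 0.33 and -0.34 with siSelT-5. The arrays of each construct fell on both sides of 0, and replicates spread more widely than in any other member, with an SD of 0.47 for siSelT-5. The mean was 0.05 ± 0.30 (SD, n = 4, limma adjusted p = 0.760), with an interval of -0.28 to 0.38. Centred it was -0.21 (adjusted p = 0.232).

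**Figure D1:**
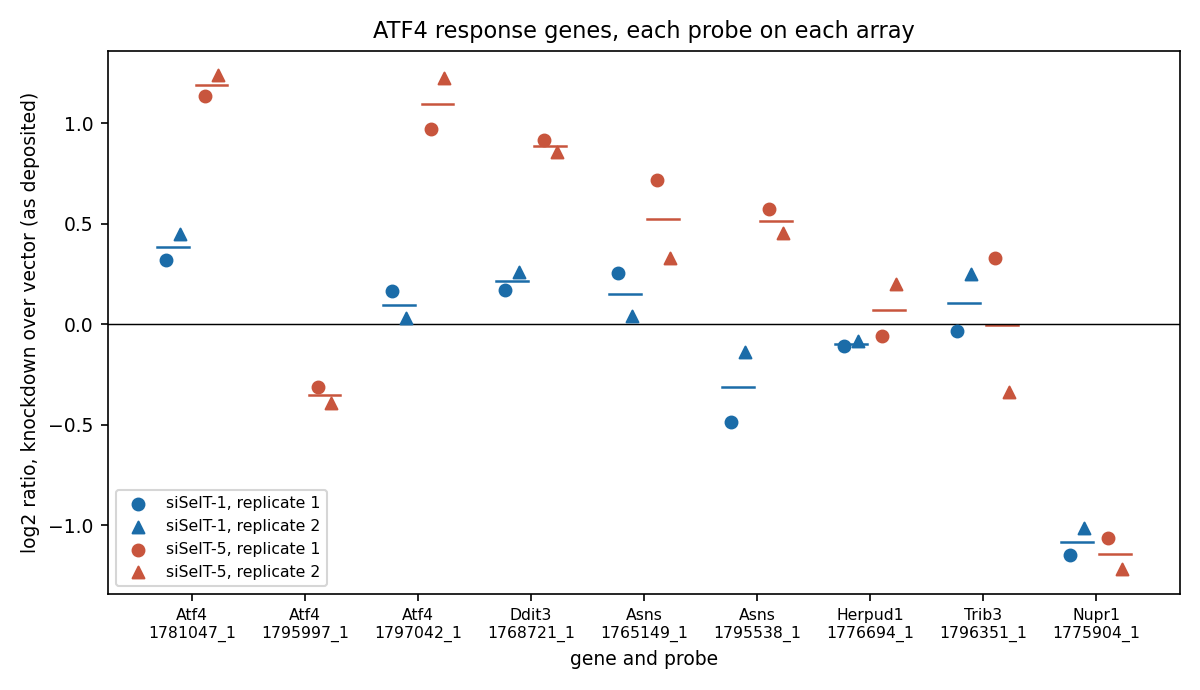
Log2 ratio of knockdown over vector (vertical axis, as deposited) for the 9 probes of the 6 genes (horizontal axis), with blue for siSelT-1, red for siSelT-5, circles for replicate 1, triangles for replicate 2 and lines for the mean of 2 arrays. The siSelT-5 points of the 2 Atf4 probes measured on all arrays lie between 0.97 and 1.24, and all Nupr1 points between -1.22 and -1.02.

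By construct, siSelT-1 moved 1 of the 6 members past the threshold, Nupr1, against 13.7% of all genes (10.3% higher and 3.37% lower). With siSelT-5, 3 members rose, Atf4, Ddit3 and Asns, and Nupr1 fell, against 53.9% of all genes (47.6% higher and 6.29% lower). Centred, the siSelT-5 count was 2 higher, Atf4 and Ddit3, and 1 lower, against 39.2% of genes (19.2% higher and 20% lower). The siSelT-1 count was again Nupr1 alone, against 8.9% (3.83% higher and 5.07% lower). The members' median was 0.01 with siSelT-1, beside 0.14 for all genes, and 0.29 with siSelT-5, beside 0.37. The comparisons with vector for both constructs contain the same arrays as those for each construct. The fit took 1 shared spread per gene from both constructs, though siSelT-1 replicates stood closer (root mean square SD 0.164 against 0.349). The SD printed for a construct is thus not the spread behind its p-value. The counts by construct therefore do not by themselves measure a difference in response.

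**Figure D2:**
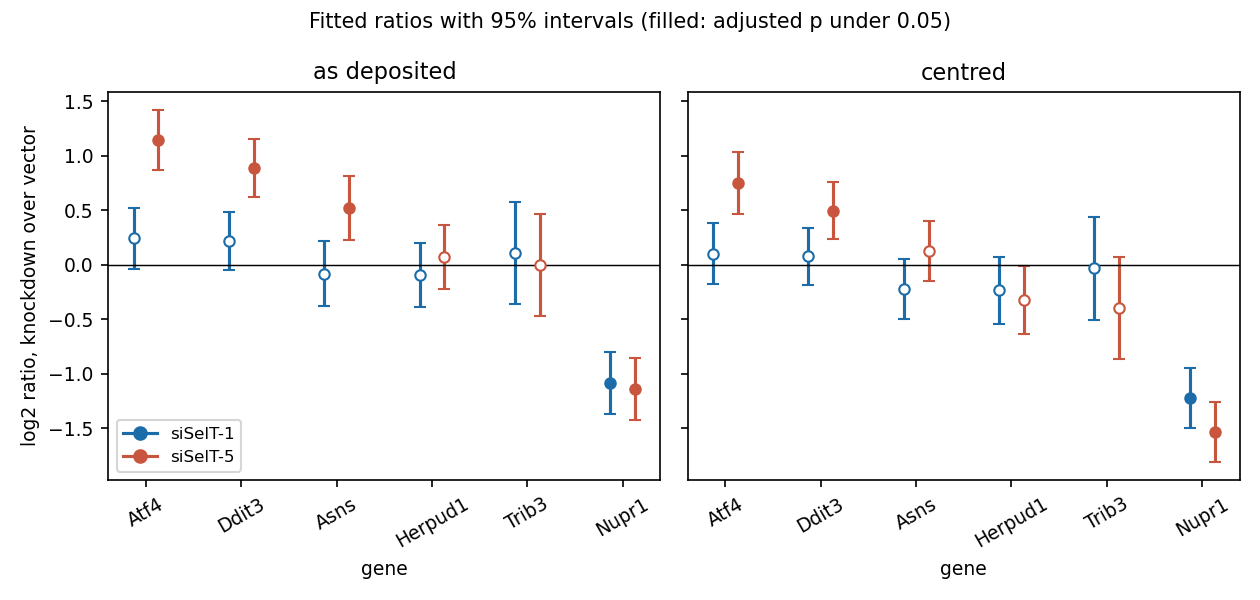
Fitted log2 ratio with its 95% interval for each gene (horizontal axis) and construct, as deposited on the left and centred on the right; filled points passed at an adjusted p under 0.05. Atf4 and Ddit3 are filled for siSelT-5 alone on both scales, Nupr1 for both constructs, and Asns loses its filled siSelT-5 point after centring.

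The direct comparison asks whether the members differed between the siSelT-1 and the siSelT-5 arrays. These arrays also differ in the number of probes with a value, in their medians and in replicate spread. A difference by target site cannot be told apart from these. Over all genes the median of siSelT-1 minus siSelT-5 was -0.26 (log2) as deposited and -0.0086 centred. Atf4 stood 0.90 (log2) lower with siSelT-1 than with siSelT-5 (95% interval of siSelT-1 minus siSelT-5, -1.30 to -0.51, limma adjusted p = 0.0543), Ddit3 stood 0.67 lower (-1.05 to -0.29, adjusted p = 0.0585) and Asns 0.60 lower (-1.02 to -0.18, adjusted p = 0.0729). These 3 had an unadjusted p under 0.05, and 0 of 6 members passed after adjustment. Over all genes 0.0631% passed (0.021% higher and 0.0421% lower with siSelT-1, the same shares after centring), although 1697 had an unadjusted p under 0.05. The intervals of Herpud1 (-0.58 to 0.25) and Trib3 (-0.55 to 0.77) reached across 0. The siSelT-5 arrays stood above the siSelT-1 arrays with no overlap for 4 members, Atf4, Ddit3, Asns and Herpud1, against 52.6% of all genes. The reverse held for 0 members and 11.9% of genes, so that 64.5% of all genes had no overlap. Centred, siSelT-5 stood higher for Atf4, Ddit3 and Asns, against 32% of all genes, and lower for Nupr1, against 28.3%, with 60.3% of all genes not overlapping. Centring left differences of -0.65 for Atf4, -0.42 for Ddit3 and -0.35 for Asns (adjusted p 0.114 to 0.230). Without siSelT-5 replicate 1 or without siSelT-5 replicate 2 these 3 genes passed (adjusted p 0.00503 to 0.0483), as did 1796 or 1789 of all genes, and the spread then came from the closer siSelT-1 pair alone.

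**Figure D3:**
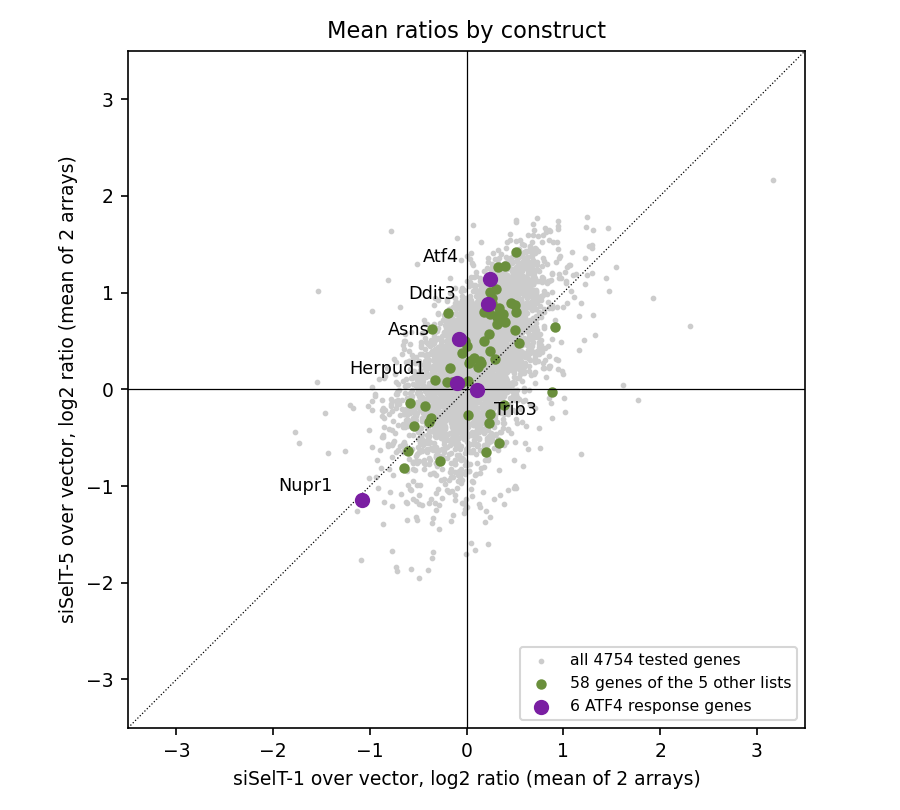
Mean log2 ratio of 2 arrays with siSelT-1 (horizontal axis) and siSelT-5 (vertical axis) for all 4754 tested genes in grey, 58 genes of 5 related lists in green and the 6 members in purple; the dotted line marks equal ratios. Atf4, Ddit3 and Asns lie above the line, and Nupr1 lies close to it at the lower left, at -1.08 and -1.14.

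Leaving out single arrays ended some calls over both constructs. Without siSelT-1 replicate 1, limma called 0 of 4754 genes, with 1846 at an unadjusted p under 0.05. The ratios of the 3 members then moved little, to 0.69 for Atf4, 0.57 for Ddit3 and -1.08 for Nupr1, at adjusted p-values of 0.0536, 0.0582 and 0.0515. Without siSelT-1 replicate 2 Ddit3 stood at 0.53 and missed the threshold (adjusted p = 0.0548).

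By likeness over the 4 centred ratios, the genes nearest to Atf4 were Taf10, for a subunit of the general transcription factor TFIID, at a Euclidean distance of 0.0894 (log2), and Rad21, for a subunit of cohesin, at 0.0953. The median distance of all genes to Atf4 was 1.23. Saraf (0.0667) and Ndufs4 (0.0753) lay nearest to Ddit3, Pebp1 (0.0417) and Cog4 (0.0766) to Asns, Pnkd (0.0746) and Dcaf12 (0.0809) to Herpud1, and Tspyl1 (0.108) and Lsm2 (0.118) to Trib3. The genes nearest to Nupr1 lay farther off, with Rtca, for an RNA cyclase, at 0.202 and the ubiquitin-conjugating enzyme gene Ube2a at 0.444. Rtca read -1.14 and -1.13 with siSelT-1 and -1.18 and -1.34 with siSelT-5. With 4 arrays and 4754 genes, a close neighbour need not share regulation, and the number of close neighbours was not counted.

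Sensors and other transcription factors of these pathways moved in both directions. In this list and those that follow, the genes named are mainly the up to 6 with the smallest p over both constructs. Of 21 genes listed, 10 were tested for both constructs, and 6 rose and 1 fell (70%, against 53.7% of all genes), with a median of 0.28 beside 0.25. Creb3, an ER-bound factor cut in the manner of ATF6, rose to 0.59 ± 0.29 (SD, n = 4), Atf6b, the paralogue of Atf6, to 0.58 ± 0.40, and Eif2ak1, the heme-regulated eIF2alpha kinase, to 0.56 ± 0.09. Nfe2l2, for NRF2, which the ER kinase PERK can activate, fell to -0.51 ± 0.35. Cebpb, a partner of ATF4, stood at 0.32 and Jdp2, a repressor of the AP-1 family, at 0.49; both passed as deposited and not centred. With siSelT-1 alone, as deposited, only Eif2ak1 of the 10 passed (10%, against 13.7% of all genes). With siSelT-5 alone, 6 rose and 1 fell (70%, against 53.9%). Centred, over both constructs, 3 rose and 2 fell (50%, against 42.4%). Without siSelT-1 replicate 1 none of the 6 named genes passed (adjusted p 0.0559 to 0.159), nor did any gene of the lists that follow.

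Targets of ATF4 in amino acid metabolism were split. Of 22 listed 8 were tested, and 2 rose and 2 fell (50%), against 53.7% of all genes, with a median of 0.19 beside 0.25. After centring 2 rose and 2 fell again, against 42.4%. Slc3a2, the heavy chain shared by several amino acid exchangers, rose to 0.69 ± 0.22 (SD, n = 4) and the mitochondrial folate enzyme gene Aldh1l2 to 0.78 ± 0.40. The amino acid transporter genes Slc1a4 and Slc38a2 fell, to -0.37 ± 0.12 and -0.30 ± 0.15. A single probe of Slc38a2, 1797310_1, stood at 0.0062. Aldh18a1, which starts proline synthesis, stood at -0.20 with siSelT-1 and 0.79 with siSelT-5 and did not pass over both (adjusted p = 0.0531). Phgdh, the first enzyme of serine synthesis, stood at 0.21 and did not pass. By construct, as deposited, Slc3a2 and Aldh1l2 alone passed with siSelT-1 (25%, against 13.7% of all genes). Slc3a2 and Aldh18a1 alone passed with siSelT-5 (25%, against 53.9%). Slc1a4 and Slc38a2 thus passed with neither construct alone as deposited. Centred, only Slc38a2 passed with siSelT-1, lower than vector (12.5%, against 8.9% of all genes). With siSelT-5 centred, Slc3a2 rose and 3 genes fell, Slc1a4 and Slc38a2 among them (50%, against 39.2%).

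Of 14 ATF4 and CHOP targets in signalling and cell death, 4 were tested and 4 rose, against 45.7% of all genes higher, and 2 rose after centring, against 20.5%. With 4 genes, these shares say little about the list. They were the angiogenic factor gene Vegfa at 0.67 ± 0.43 (SD, n = 4), the translation repressor gene Eif4ebp1 at 0.55 ± 0.27, Txnip, which encodes an inhibitor of thioredoxin, at 0.40 ± 0.29, and the death receptor gene Tnfrsf10b at 0.42 ± 0.59. Vegfa and Eif4ebp1 were those that passed centred. As deposited, only Tnfrsf10b passed with siSelT-1 alone (25%, against 13.7% of all genes). Vegfa, Eif4ebp1 and Txnip passed with siSelT-5 alone (75%, against 53.9%). Tnfrsf10b read 0.95 and 0.81 with siSelT-1 and -0.35 and 0.30 with siSelT-5, and a further probe of it, measured with siSelT-5 only, read -1.67 and -1.86.

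Genes of tRNA charging and export, several of them ATF4 targets, included members well above and well below vector. Of 21 listed 16 were tested, and 8 rose and 2 fell (62.5%, against 53.7% of all genes), with a median of 0.28 beside 0.25. For siSelT-1 alone, as deposited, 0 rose and 1 fell (6.25%, against 13.7% of all genes). For siSelT-5 alone, 10 rose and 3 fell (81.25%, against 53.9%). Centred, over both constructs, 6 rose and 3 fell (56.3%, against 42.4%). The synthetase genes Aars (0.84 ± 0.52, SD, n = 4), Sars (0.79 ± 0.55), Wars (0.68 ± 0.26), Kars (0.62 ± 0.46) and Lars (0.53 ± 0.26) rose. Xpot, the exporter of tRNA from the nucleus, fell to -0.46 ± 0.11. Eprs, chosen after its values were seen, was the lowest of the list at -0.73. Aars and Sars, like Atf4, stood higher with siSelT-5 (1.28 and 1.27) than with siSelT-1 (0.40 and 0.32). Both siSelT-5 arrays lay above both siSelT-1 arrays in 52.6% of all genes. For the difference itself 0 of the 16 genes passed (limma, 8 at an unadjusted p under 0.05). A further probe of Sars, measured with siSelT-5 only, read 0.06 and 0.01. A further probe of Kars, also with siSelT-5 only, read 0.73 and 0.03.

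ER-associated degradation, to which Herpud1 belongs, had genes on both sides of vector. Of 23 listed genes 20 were tested, and 7 rose and 3 fell (50%, against 53.7% of all genes), with a median of 0.14 beside 0.25. Centred, 3 rose and 5 fell (40%, against 42.4%), with a median of -0.13 beside -0.02. Vcp, the ATPase that pulls proteins out of the ER membrane, rose to 0.96 ± 0.53 (SD, n = 4), the mannosidase-like gene Edem2 to 0.58 ± 0.23, and the membrane protein gene Derl1 to 0.60 ± 0.41. Syvn1, a ubiquitin ligase that XBP1 induces, stood at 0.50 ± 0.25 and the ubiquitin-conjugating enzyme gene Ube2j2 at 0.51 ± 0.20; both passed as deposited and not centred. Ube2j1, the relative of Ube2j2, fell to -0.62 ± 0.16 and also passed centred, at -0.89. As deposited, siSelT-1 alone gave 1 gene higher, Vcp, and 2 lower, Ube2j1 among them (15%, against 13.7% of all genes). Under siSelT-5 alone 7 rose and 1 fell (40%, against 53.9%).

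**Figure D4:**
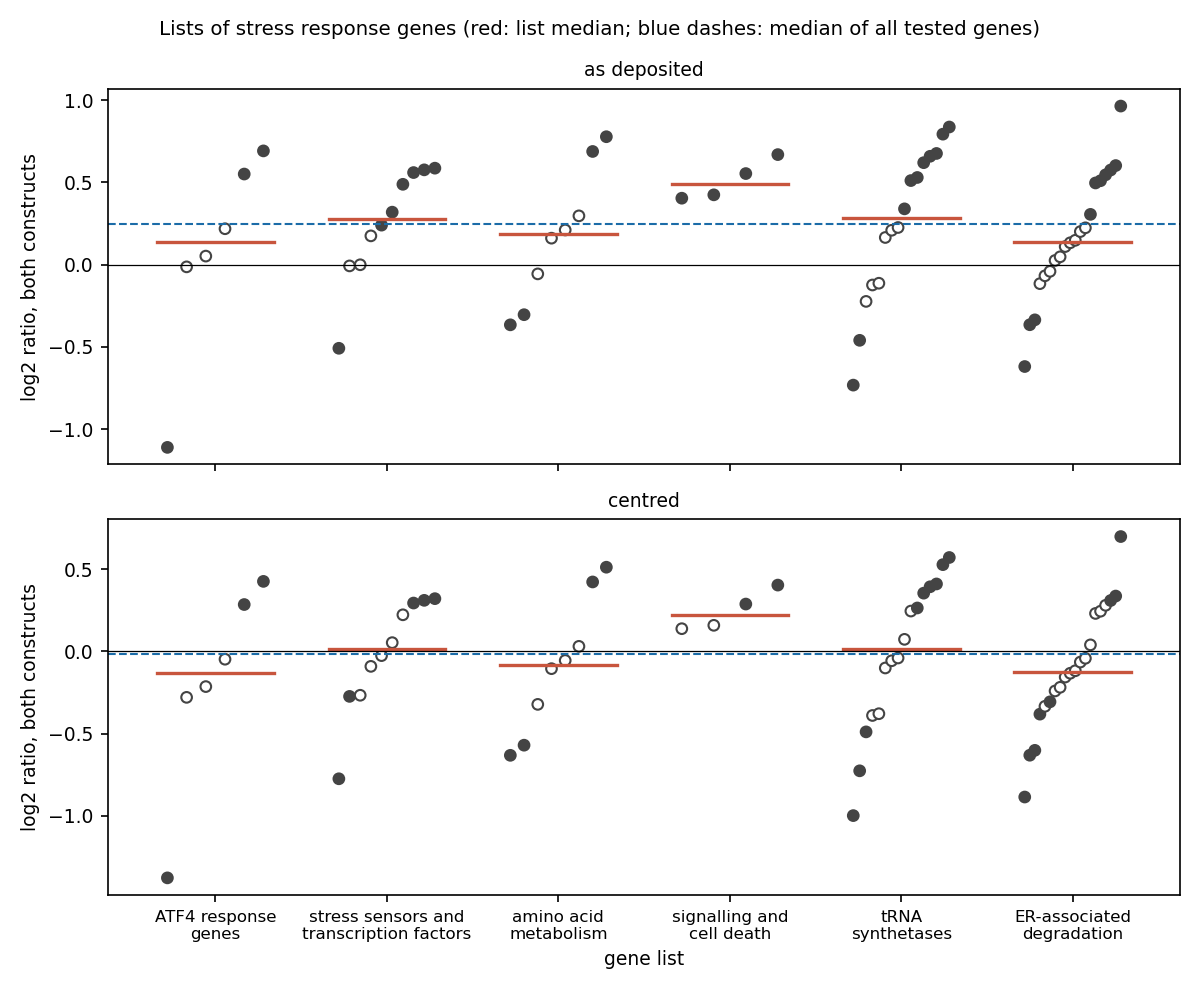
Log2 ratio over both constructs (vertical axis) of each tested gene of the 6 members and 5 related lists (horizontal axis), as deposited above and centred below; filled points passed, red lines are list medians and blue dashes the median of all genes, 0.25 and -0.02. Each list but signalling and cell death, where 4 of 4 rose as deposited, holds genes that passed in both directions.

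Several central genes of the response had no siSelT-1 value and were measured with siSelT-5 only, and no test was made on them. They are described beside the 7460 probes of that kind, whose median was -0.63 and of which 17.4% stood above 0. Of the untested genes in the 5 lists, 25 such probes covered 18 genes, with a median of -0.34, and 7 of them stood above 0. The genes named here were chosen after their values were seen. Eif2ak3, which encodes the ER kinase PERK, read 0.60 and 0.41. Mthfd2, a mitochondrial folate enzyme gene, read 0.52 and 0.61, and the 2 probes of the serine synthesis gene Psat1 averaged 0.55 and 0.25. These stood in percentiles 91.1 to 96.8 of the probes measured in this way. Atf3, an early stress factor induced by ATF4, read -0.72 and -1.17, the Ern1 gene of the sensor IRE1 -0.31 and -0.39, Atf6 -0.10 and -0.01, and the cystine transporter gene Slc7a11 -0.41 and -0.09. These lay in percentiles 32.5 to 80.4. Lower still were Derl3 at a mean of -1.82, Bbc3 at -1.42 and Shmt2 at -1.11, in percentiles 3.54 to 24.2. The probes of Mbtps2 averaged -2.10, -1.01 and -0.15, the lowest of them in percentile 0.992.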

How the data were processed

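Per the labels, 4 two-colour arrays were hybridised with vector RNA in Cy3 and knockdown RNA in Cy5, from 10 to 15 µg of Trizol-extracted total RNA copied with oligo-dT. The deposited values are log ratios per probe, read as log2; background correction, normalization, filter and log base are not given in the sources used here. Probe names came from GEO's platform annotation: 18129 of 22534 probes had 1 gene name, 140 several and 4265 none, and 18041 matched a RefSeq gene of GRCm38.p6. Probes of 1 name with a value on all 4 arrays were averaged per gene, which kept 8 of the 9 probes of the members.

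Group means were fitted with limma 3.58.1 (lmFit, eBayes) in R 4.3.3, leaving 2 residual degrees of freedom, and p-values were adjusted over 4754 genes by Benjamini-Hochberg (threshold 0.05, two-sided). The fit over both constructs was tried on 20 simulated data sets with 200 changed genes each. It recovered 42.8% of genes given the smaller of 2 sizes of change and 79% of those given the larger. Of its calls 3.36% were false. Both constructs were simulated with the same change and spread per gene, unlike the data, and the comparisons by construct were not tried. The number of arrays limits the precision. Named were all members, up to 6 genes of each list with the smallest p, and 2 neighbours of each member. Members and lists were chosen with earlier results of these data known. Alternatives were centring, scaling, filters, single probes, spread estimates, a replicate block and each array left out.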

Additional observations from a re-analysis of the deposited data

Results flagged for a closer look

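In 5 of the tested genes named above, both siSelT-1 arrays lay below vector and both siSelT-5 arrays above it. None of the differences passed the threshold. How many of all 4754 genes show this pattern was not counted. Both siSelT-5 arrays lay above both siSelT-1 arrays in 52.6% of them. Asns stood at -0.08 with siSelT-1 and 0.52 with siSelT-5, a difference of -0.60 (limma, adjusted p = 0.0729), and 1 of its 2 probes had the same sign on all 4 arrays. Centred, the Asns difference was -0.35 (adjusted p = 0.230). It passed when arrays were centred on all their values (-0.93, adjusted p = 0.0135), without siSelT-5 replicate 1 (-0.47, adjusted p = 0.0483) and without siSelT-5 replicate 2 (-0.73, adjusted p = 0.0134). Aldh18a1 stood at -0.20 and 0.79, a difference of -0.99 (adjusted p = 0.0546), and of -0.73 centred (adjusted p = 0.127). Pebp1 differed by -0.61 (limma, adjusted p = 0.0743) and Cog4 by -0.59 (adjusted p = 0.0873). Both had been named for their likeness to Asns, so they are not separate cases of the pattern. Pnkd, named for its likeness to Herpud1, differed by -0.17 (adjusted p = 0.457).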

How the results depend on the processing

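The count of members past the threshold was 3 over both constructs and ranged from 0 to 4 with 1 array left out. For siSelT-1 it was 1 and ranged from 0 to 1, being 0 without either siSelT-1 array (limma called 0 genes in each case, with 390 and 585 at an unadjusted p under 0.05). For siSelT-5 it was 4 and ranged from 3 to 4. For siSelT-1 minus siSelT-5 it was 0 and ranged from 0 to 3, and it was 3 when arrays were centred on all their values and 1 with array weights (Atf4, adjusted p = 0.0466). In the other 44 combinations of count and setting it stayed within 1.5 times. Centring on all values lowered siSelT-1 ratios and raised siSelT-5 ratios in every gene, not in the members alone. Where the share of all genes in a setting is not given, a count is not a result about the members. The causes were not tested.

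The replicate number as a block gave 0 members for siSelT-1 against vector (Nupr1 at -1.08, adjusted p = 0.0505) and 35 genes in place of 650, and it changed no other member's call. Deviations of same-numbered arrays correlated at 0.0758 over 2 pairs, so the numbers were not taken to pair the arrays.

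Direction turned only in values that had not passed, except in Slc38a2. Over both constructs, centring on shared probes gave -0.0481 for Asns, -0.21 for Trib3 and -0.0556 for Phgdh, and scaling by the median absolute deviation gave -0.0878 for Asns, -0.17 for Trib3, -0.0471 for Aldh18a1 and -0.0395 for Phgdh. Centring on all values gave 0.0299 for Herpud1, and Slc38a2 stood at 0.0062 by probe 1797310_1 alone. For siSelT-1, Asns by probe 1765149_1 stood at 0.15, and Trib3 stood at -0.0324 centred, -0.0155 centred on all values and -0.0348 scaled. For siSelT-5, Herpud1 stood at -0.32 centred and -0.28 scaled, and Trib3 at 0.21 centred on all values. For siSelT-1 minus siSelT-5, Herpud1 stood at 0.0883 centred, Trib3 at -0.22 and Nupr1 at -0.27 centred on all values, and Nupr1 at -0.33 scaled.

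With 1 array left out, Herpud1 ranged from -0.0778 to 0.0514 over both constructs and from -0.0599 to 0.20 for siSelT-5. Trib3 ranged from -0.12 to 0.22 over both, -0.0343 to 0.25 for siSelT-1, -0.34 to 0.33 for siSelT-5 and -0.22 to 0.45 between constructs, and Nupr1 from -0.0174 to 0.14 between constructs. A filter that let in genes measured on 1 array of each construct gave Atf4 0.44 over both. Each construct had 2 arrays, and their number limits the precision.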
